A study of Homo sapiens with 2 samples.

Results

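Potassium channel genes were the subject of this report. They were taken as the protein-coding genes of the NCBI RefSeq annotation of GRCh38 whose symbols start with KCN, which gave 96 of 20037 genes. The symbols divide them into 40 voltage-gated pore subunits, 8 calcium- or sodium-activated pore subunits, 16 inward rectifiers (KCNJ), 15 two-pore domain subunits (KCNK) and 17 accessory subunits or regulators (KCNAB, KCNE, KCNIP, KCNMB and KCNRG). No measured value was used to choose them.

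The peaks came from MDA-MB-231, an established human line of triple-negative breast cancer, in which RUNX2, a transcription factor, and MTA1 were mapped along the genome by CUT&Tag. In this assay a transposase is brought to the bound protein by an antibody, and the fragments that it cuts nearby are sequenced. MTA1 is a subunit of NuRD, a chromatin remodelling and histone deacetylase complex, and the study asked where it binds together with RUNX2. There was 1 library for the RUNX2 antibody and 1 for the MTA1 antibody, both from cells with no genetic or drug treatment named in the labels, grown in medium with serum.

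Neither library had a replicate, and neither was a control, so each difference between the lists is a difference between 2 libraries. The depth of the libraries is unknown, since the files list peaks without reads. A peak missing from a list can therefore be a weak signal as well as an absent one. The submitters' processing notes name the build hg19, but the listed positions matched RefSeq starts of GRCh38: 12.6% of RUNX2 and 19.0% of MTA1 peaks lay over a GRCh38 promoter, while moving the lists by 100 kb left 0.768% and 0.825%. The scale of the peak score was not stated, so scores were read as ranks within their own list. The score rank of a peak is the percentage of peaks of the same list with a lower score.

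Potassium channels let potassium ions leave or enter the cell along their gradient and so set the membrane potential, the excitability of nerve and muscle, and the volume and cycle of many dividing cells. Most of their genes are used in a restricted set of tissues such as brain, heart, kidney or ear. Several are studied in breast cancer, among them KCNN4, a calcium-activated channel of intermediate conductance, KCNH1, a voltage-gated channel found in many tumours, and KCNMA1, the pore of the large-conductance calcium-activated channel. RUNX2 is known as the master regulator of bone formation, and the RUNX proteins bind DNA at TGTGGT or its reverse complement.

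Promoter sequences are shown first for the genes on which the results turn. Each holds the 250 bases before a RefSeq start, 5′ to 3′ on the strand of the gene, in the build GRCh38.p14. Capitals mark 3 motifs searched on both strands: TGTGGT (RUNX), GGGCGG (GC box, bound by SP factors) and TGANTCA (AP-1). No match overlapped another in the sequences shown. The AP-1 motif was added after the KCNMA1 sequence had been read, and KCNMA1, KCNH1, KCNC4 and KCNJ3 were chosen after their values were seen. A match is a run of letters and not a measured site.

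KCNN4 (chr19:43780974-43781223, minus strand) had high-ranking RUNX2 signal over a promoter poor in CpG, and is shown because, of the 6 genes with the best-ranked end peaks, it was the 1 whose own promoter was covered by peaks of both lists.
KCNN4: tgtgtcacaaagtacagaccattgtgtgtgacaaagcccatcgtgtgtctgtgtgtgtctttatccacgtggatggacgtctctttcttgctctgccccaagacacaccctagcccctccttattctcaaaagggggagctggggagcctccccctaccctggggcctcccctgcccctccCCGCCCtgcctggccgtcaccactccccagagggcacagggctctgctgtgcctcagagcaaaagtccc
KCNMA1 (chr10:77350762-77351011, minus strand) is shown at the inner start that carried its best RUNX2 peak.
KCNMA1: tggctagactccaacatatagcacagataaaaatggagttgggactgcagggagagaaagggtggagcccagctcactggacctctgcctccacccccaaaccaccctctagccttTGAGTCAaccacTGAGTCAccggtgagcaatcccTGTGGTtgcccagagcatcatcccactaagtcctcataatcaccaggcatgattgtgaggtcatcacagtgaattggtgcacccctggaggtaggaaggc
KCNH1 (chr1:211134149-211134398, minus strand) and KCNC4 (chr1:110210064-110210313, plus strand) are shown as CpG-rich promoters with middle-ranking peaks of both lists.
KCNH1: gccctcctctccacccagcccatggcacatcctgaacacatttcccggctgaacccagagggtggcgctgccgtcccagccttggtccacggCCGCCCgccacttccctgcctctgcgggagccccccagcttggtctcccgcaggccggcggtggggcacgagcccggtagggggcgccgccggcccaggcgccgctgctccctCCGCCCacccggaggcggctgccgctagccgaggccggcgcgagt
KCNC4: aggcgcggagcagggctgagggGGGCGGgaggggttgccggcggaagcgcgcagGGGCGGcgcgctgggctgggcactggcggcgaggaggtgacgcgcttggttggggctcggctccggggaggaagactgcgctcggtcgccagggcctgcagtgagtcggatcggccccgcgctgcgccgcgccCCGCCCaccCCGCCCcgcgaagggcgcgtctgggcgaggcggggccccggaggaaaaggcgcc
KCNJ3 (chr2:154698445-154698694, plus strand) is shown as a promoter with no peak.
KCNJ3: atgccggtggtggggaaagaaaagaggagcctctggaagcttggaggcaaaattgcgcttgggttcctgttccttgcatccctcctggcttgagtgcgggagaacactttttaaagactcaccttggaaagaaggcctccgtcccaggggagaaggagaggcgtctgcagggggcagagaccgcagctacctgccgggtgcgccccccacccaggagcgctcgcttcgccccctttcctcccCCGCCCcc

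The KCNN4 promoter held 5 CpG, an observed to expected ratio of 0.231 given its content of C and G, and 1 GC box. RUNX2 covered 250 of its 250 bases and MTA1 covered 229. The KCNMA1 inner promoter held 1 CpG, 1 RUNX motif and 2 AP-1 motifs, and it was covered over 250 bases by RUNX2 and 235 by MTA1. Of the promoters printed here, it alone held a RUNX motif. The KCNH1 promoter held 25 CpG and 2 GC boxes, and the KCNC4 promoter 36 CpG and 4 GC boxes. KCNJ3, the pore of a G-protein-gated inward rectifier, held 12 CpG and 1 GC box. Thus promoters of both low and high CpG content carried peaks.

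Potassium channel genes had peaks at their ends less often than protein-coding genes as a whole. A RUNX2 peak lay within 3 kb of an end in 31 of 96 genes (32.3%, 95% interval 23.1 to 42.6), against 59.9% of all protein-coding genes. An MTA1 peak did so in 29 genes (30.2%, 21.3 to 40.4), against 59.1%. Intervals are exact (Clopper-Pearson), cover counting error only, and treat genes as independent, which members of 1 family need not be.

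The difference was larger for genes with both. Peaks of both lists stood at the ends of 18 potassium channel genes (18.8%, 11.5 to 28.0), against 51.9% of all genes. A RUNX2 peak alone was at the ends of 13 (13.5%, against 8.0%) and an MTA1 peak alone at the ends of 11 (11.5%, against 7.13%). Neither was at the ends of 54 (56.2%, 45.7 to 66.4), against 33.0%. Of the members with a RUNX2 end peak 58.1% (39.1 to 75.5) also had an MTA1 end peak, while over all genes this was 86.7%.

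Deeper inside, more than 3 kb from both ends, the order was the other way round. A RUNX2 peak was inside 50 members (52.1%, 41.6 to 62.4), against 39.6% of all genes, and an MTA1 peak inside 41 (42.7%, 32.7 to 53.2), against 32.2%. Both were inside 34 members (35.4%, 25.9 to 45.8), against 28.2%. With ends and interior together, 71 members (74.0%, 64.0 to 82.4) had some peak, against 77.9% of all genes. The other 25 had none in either list, and 29 had peaks inside but none at an end. Over all genes, 33.0% had no end peak of either list and 22.1% had no peak at all. Most genes without an end peak thus had none inside either, while more than 50% of such members had one inside. Span was not matched in these shares.

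Weighting the shares of all genes to the members' span classes gave about the number seen inside, and more than the number seen at the ends. Potassium channel genes are long, with a median span of 39.2 kb (1.47 to 1220 kb) against 24.1 kb. If the members of each span class had the share of all genes of that class, 47.1 would have a RUNX2 and 39.3 an MTA1 peak inside, close to the 50 and 41 observed. The same reckoning gives 57.0 members with a RUNX2 and 56.2 with an MTA1 end peak, where 31 and 29 were observed, and 49.2 with both, where 18 were observed. Spans within a class were not matched: over 200 kb the median was 401 kb for members and 319 kb for all genes.

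By span, the end shares of members were below those of all genes in each of the 4 classes. Among 20 members under 10 kb, 25.0% had a RUNX2 and 25.0% an MTA1 end peak (interval 8.66 to 49.1 for each), against 49.1% and 47.8%. The upper limit of that interval thus lies about at the RUNX2 value and above the MTA1 value of all genes. Among 34 members of 10 to 50 kb it was 35.3% (19.7 to 53.5) and 29.4% (15.1 to 47.5), against 65.9% and 65.8%. Among 23 members of 50 to 200 kb it was 47.8% and 43.5%, against 64.8% and 63.3%, with intervals for the members (26.8 to 69.4 and 23.2 to 65.5) that include the value of all genes for both lists. Among 19 members over 200 kb it was 15.8% (3.38 to 39.6) and 21.1% (6.05 to 45.6), against 52.0% and 51.5%.

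The inside shares rose with span as they did for all genes. Under 10 kb, 1 member of 20 (5.0%) had a RUNX2 peak inside, against 1.6%, and 0 of 20 had an MTA1 peak, a count that allows up to 16.8%, against 1.12%. At 10 to 50 kb the shares were 47.1% for RUNX2 and 26.5% for MTA1, against 37.4% and 28.3%. At 50 to 200 kb they were 65.2% and 69.6%, against 73.3% and 60.8%, and over 200 kb 94.7% and 84.2%, against 90.6% and 81.3%. For both lists and in each class the interval of the members includes the value of all genes on this measure, as the plot of shares by span shows.

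**Figure D1:**
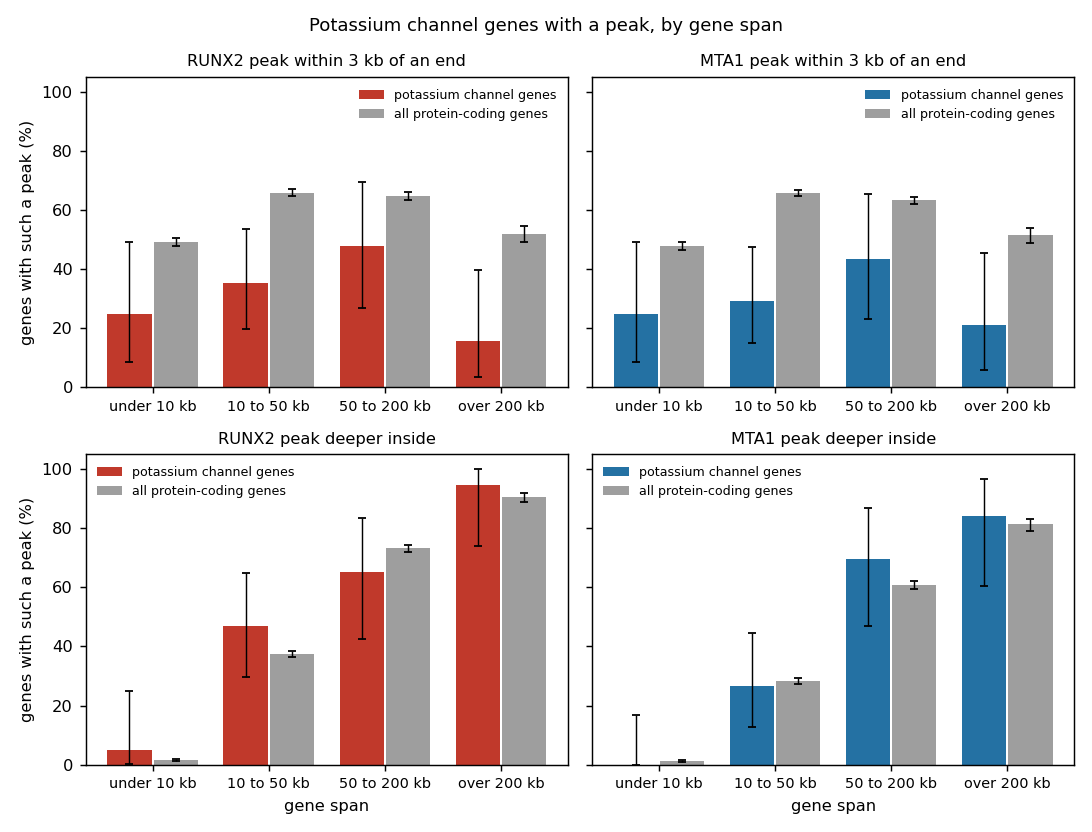
Percentage of genes with a RUNX2 (left) or MTA1 (right) peak within 3 kb of an end (top) or deeper inside (bottom), by gene span. Coloured bars are the 96 potassium channel genes, grey bars all protein-coding genes, and whiskers exact 95% intervals. The coloured bars are lower at the ends in each class (15.8% against 52.0% for RUNX2 over 200 kb) and similar inside (94.7% against 90.6%).

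The shares were lower on the start side of the genes and not at the far end. The start was known for 47 members over 20 kb that were in the RefSeq promoter table. On the start side, 8 of them had a RUNX2 peak within 3 kb (17.0%, 7.65 to 30.8), against 60.3% of all such genes, and an MTA1 peak in 9 (19.1%, 9.15 to 33.3), against 61.4%. At the far end the members were like other genes: 8 had a RUNX2 peak there (17.0%), against 17.9%, and 7 an MTA1 peak (14.9%, 6.20 to 28.3), against 13.9%. Among all genes the start side thus had peaks far more often than the far end, and among potassium channel genes the shares at the ends were alike.

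The same held within 1 kb of an own annotated start, inner starts included. This was open to 72 members, those in the promoter table. A RUNX2 peak lay there in 11 (15.3%, 7.88 to 25.7), against 52.1% of all genes in the table, and an MTA1 peak in 10 (13.9%, 6.87 to 24.1), against 53.9%. Both did so in 8 (11.1%, 4.92 to 20.7), against 46.9%: KCNAB2, KCNC4, KCNH1, KCNIP2, KCNIP3, KCNMA1, KCNN3 and KCNN4. RUNX2 alone was at a start of KCNG3, KCNJ14 and KCNS3, and MTA1 alone at a start of KCNN2 and KCNQ5.

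The difference was there in both classes of CpG content. CpG-rich promoters, here those with at least 55% G and C and a CpG ratio of at least 0.6, were 42.7% of the 110 member promoters and 53.9% of all. Of 47 CpG-rich member promoters, 14.9% (6.20 to 28.3) had a RUNX2 peak within 1 kb of the start and 14.9% an MTA1 peak, where all CpG-rich promoters had 66.8% and 69.7%. Of the 63 others, 7.94% (2.63 to 17.6) had a RUNX2 and 6.35% (1.76 to 15.5) an MTA1 peak, against 25.6% and 25.6%. Promoters of 1 gene were counted separately: the 47 belong to 39 genes and the 63 to 44. The intervals treat them as independent and can be too narrow. Potassium channel promoters were therefore lower in both classes, and by more percentage points in the CpG-rich one.

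**Figure D2:**
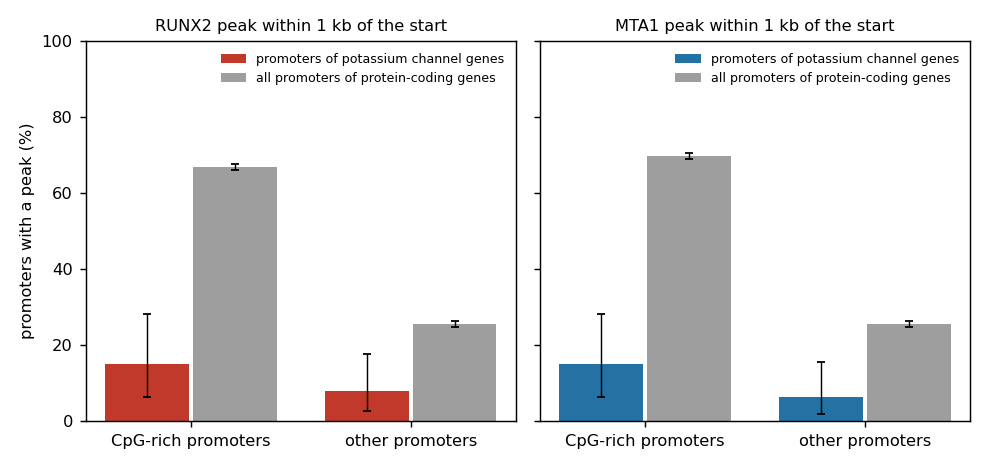
Percentage of promoters with a RUNX2 (left) or MTA1 (right) peak within 1 kb of the start, for CpG-rich and other promoters. Coloured bars are promoters of potassium channel genes, grey bars promoters of all protein-coding genes, and whiskers exact 95% intervals. The whiskers treat promoters as independent, also those of 1 gene. Among CpG-rich promoters the bars stand at 14.9% against 66.8% for RUNX2 and 14.9% against 69.7% for MTA1.

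The letters of the promoters differed less. TGTGGT was in 10 of 110 member promoters (9.09%) and in 9.34% of all promoters of the same length. GGGCGG was in 48.2%, against 53.7%, and TGANTCA in 8.18%, against 5.34%. What goes with the missing peaks at these promoters was not tested.

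The best-ranked end peaks of potassium channel genes mostly stood at the start of a neighbour. The same 6 genes led both lists: KCNJ14, KCND1, KCNN4, KCNH4, KCNH6 and KCNAB3. In 5 of them the best peak of each list had as its nearest start in the table that of another gene, within 1 kb. KCNN4 was the exception.

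KCND1, a voltage-gated channel of fast-inactivating current, had RUNX2 at chrX:48958312-48958622 (score 47.2, rank 98.2) and MTA1 at chrX:48957825-48958625 (30.9, rank 95.6). These overlap beyond its far end, with peak centres 86 and 156 bp from the start of OTUD5, a deubiquitinase gene. The start of KCND1 itself had no peak within 1 kb.

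KCNJ14, an inward rectifier, had RUNX2 at chr19:48468815-48469391 (48.8, rank 98.4) and MTA1 at chr19:48468864-48469373 (52.8, rank 99.5). The MTA1 centre lay 251 bp and the RUNX2 centre 266 bp from the start of CYTH2, an exchange factor for ARF proteins. Its own start had a RUNX2 peak of 112 bp at chr19:48456310-48456421, of score 4.80 and rank 22.7. No MTA1 peak overlapped that one.

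KCNH4, a voltage-gated channel of the brain, had the highest MTA1 rank of the family, 99.9 (score 68.6) at chr17:42154930-42155281. RUNX2 overlapped it at chr17:42154980-42155239 (30.1, rank 94.0). The nearest start was that of RAB5C, a GTPase of early endosomes, 116 bp from the MTA1 centre. On its start side KCNH4 had a weaker shared pair, RUNX2 rank 56.7 and MTA1 rank 74.0, close to HCRT, the gene of the orexin peptides.

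KCNH6 had RUNX2 at chr17:63550120-63550506 (29.6, rank 93.8) and MTA1 at chr17:63550061-63550478 (25.7, rank 93.0), beside the start of DCAF7. KCNAB3, an accessory subunit, had RUNX2 at chr17:7931815-7932232 (17.8, rank 84.8) and MTA1 at chr17:7931928-7932242 (28.3, rank 94.5), between CNTROB and TRAPPC1. The start of KCNAB3 was not in the table. In each of these the peaks of both lists overlapped, and their assignment to the channel gene rests on distance alone.

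KCNN4 differed in that no other protein-coding gene ended within 3 kb of its end peaks. RUNX2 stood at its own start, chr19:43780928-43781410 (41.6, rank 97.3), over the promoter printed above, and MTA1 at chr19:43780995-43781428 (11.7, rank 71.1). A second shared pair lay beyond the far end, 15.6 kb from the start of this 14.4 kb gene. RUNX2 there was at chr19:43765193-43765587 (42.8, rank 97.6) and MTA1 at chr19:43765233-43765522 (19.8, rank 87.5). One more RUNX2 peak, of rank 56.9, was inside the gene. At both places RUNX2 ranked higher in its list than MTA1 did in its own.

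Over all 41 RUNX2 end peaks of members, 13 were also within 3 kb of an end of another protein-coding gene, and of 35 MTA1 end peaks also 13. These are 31.7% and 37.1%, against 38.6% and 41.7% of the end peaks of all protein-coding genes (counted once for each gene), so closeness to another gene was no more common here. The nearest start of the table was within 1 kb and the member's own for 8 RUNX2 and 6 MTA1 peaks, and another gene's for 8 and 7. The own start was nearest for 19.5% and 17.1%, against 44.3% and 47.5% over all genes, and another gene's for 19.5% and 7 of 35, against 14.4% and 16.2%. For the other 25 and 22 no start of the table was that near, although 13 and 7 of those belong to members whose own start the table does not hold. Of 6 RUNX2 end peaks at rank 90 or above, 4 had another gene's start nearest, as had 5 of 5 MTA1 end peaks. Over all genes this was 19.1% and 24.0% of the end peaks at such ranks, and the counts for the members are too small for more than a description.

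Apart from KCNN4 and the inner start of KCNMA1, the peaks of members with both lists within 1 kb of an own start ranked below 90 there. KCNH1 had RUNX2 at chr1:211134088-211134461 (7.48, rank 56.7) and MTA1 at chr1:211134205-211134478 (9.06, rank 59.6). KCNC4 had ranks of 49.6 and 42.5, and KCNN3, a calcium-activated channel of small conductance, 29.0 and 1.87. KCNAB2, an accessory subunit with several starts, had ranks of 58.3 and 72.8 at its outer start, which it shares head to head with NPHP4, and 56.6 and 66.1 at an inner one. KCNIP2, a KChIP gene, had the highest RUNX2 rank of these, 80.7, with MTA1 at 51.5, about 1 kb upstream of one of its starts.

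**Figure D3:**
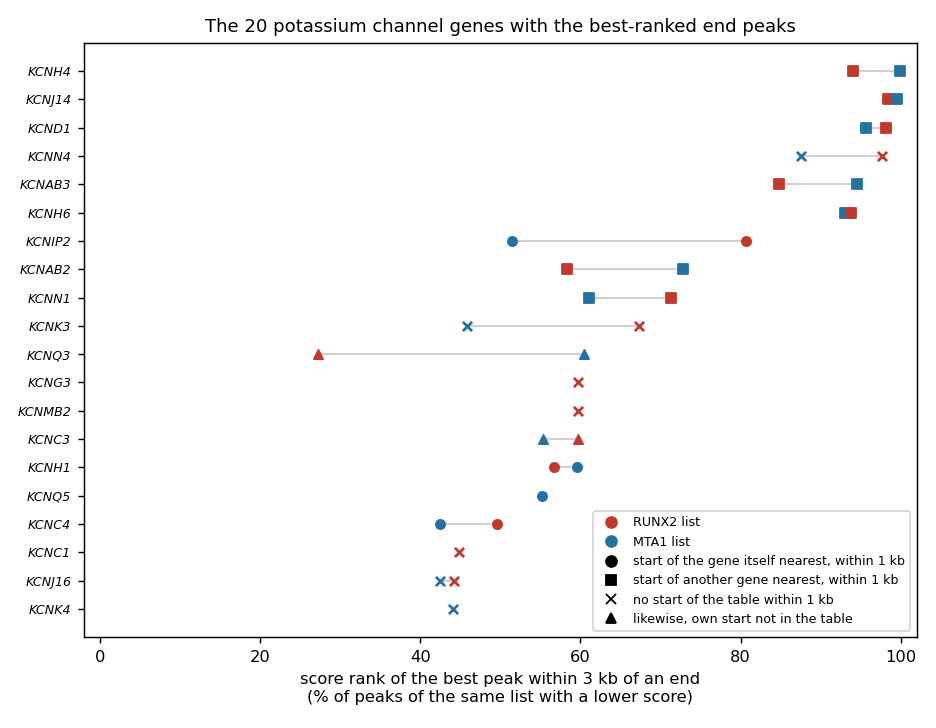
Score rank (percentage of peaks of the same list with a lower score) of the best RUNX2 (red) and MTA1 (blue) peak within 3 kb of an end, for the 20 potassium channel genes with the best-ranked end peaks. Circles have the gene's own start nearest and squares another gene's, within 1 kb. Crosses and triangles have no start of the table so near, and for triangles the gene's own start is not in the table. Most peaks at ranks over 90 are squares, and KCNN4 has RUNX2 at 97.6 beyond its far end.

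The genes with end peaks of 1 list were mostly of low or middle rank. RUNX2 alone was at the ends of genes that include KCNA3, KCNA10, KCNC1, KCNF1, KCNG1, KCNG3, KCNJ11, KCNK12, KCNMB2 and KCNS3. The best of these were KCNG3 (rank 59.7), whose start lies next to that of MTA3, itself a gene of a NuRD subunit, KCNMB2 (59.7), an accessory subunit of the large-conductance channel, and KCNC1 (44.9), a fast voltage-gated channel. MTA1 alone was at the ends of KCNA7, KCNE1, KCNIP3, KCNK4, KCNK9, KCNK13, KCNMB4, KCNQ1, KCNQ5, KCNS1 and KCNV2. The best were KCNQ5 (55.2), whose peak lay 411 bp inside its start, KCNK4 (44.1), a mechanically gated two-pore domain channel, and KCNA7 (43.5). Since each list has its own threshold, a peak in 1 list only does not show that the other protein was missing there.

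Of the 18 members with both lists at their ends, 16 had a RUNX2 peak that overlapped an MTA1 peak. The exceptions were KCNG2 and KCNK15. In 9 of the 16 an overlapping RUNX2 peak was near no end of another protein-coding gene. Both counts were made for the members only, so whether they are low or high beside all genes was not tested.

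The intervals of the channel groups overlapped for their end shares. A RUNX2 end peak was found in 45.0% (29.3 to 61.5) of voltage-gated, 37.5% (8.52 to 75.5) of calcium- or sodium-activated, 18.8% (4.05 to 45.6) of inward rectifier and 23.5% (6.81 to 49.9) of accessory genes, and in 3 of 15 two-pore domain genes (interval 4.33 to 48.1%). For MTA1 the shares were 32.5%, 37.5%, 12.5% and 35.3%, and 33.3% of the two-pore domain genes. In each group both shares were below those of all protein-coding genes, but not all intervals exclude these. The RUNX2 intervals of voltage-gated and of calcium- or sodium-activated genes include 59.9%. The MTA1 intervals of accessory (14.2 to 61.7), two-pore domain (11.8 to 61.6) and calcium- or sodium-activated genes (8.52 to 75.5) include 59.1%. Inward rectifiers, which set the resting potential, had neither list at the ends of 13 of their 16 genes. All 8 calcium- or sodium-activated genes had some peak (interval 63.1 to 100%), against 9 of 16 inward rectifiers (29.9 to 80.2%). These intervals overlap, and the median spans were 162 kb and 29.1 kb. Over all genes the share with some peak was 81.6% at 10 to 50 kb and 91.5% at 50 to 200 kb. Whether the groups differ at equal span was not tested. KCNJ12 and KCNJ18 are near-identical copies, so the 6 peaks inside the first and 0 in the second are uncertain.

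Inside the genes, a few long members held many of the peaks. The members had 213 RUNX2 and 139 MTA1 peaks inside, and the 5 members with the most held 39.4% of the RUNX2 and 42.4% of the MTA1 peaks. Per length, this was 19.0 RUNX2 peaks per Mb (exact Poisson interval 16.5 to 21.7) and 12.4 MTA1 peaks (10.4 to 14.6), against 21.9 and 14.1 over all genes. The Poisson intervals treat peaks as independent, although a few members hold many of them, so they can be too narrow. In members over 200 kb the densities were 15.6 (13.1 to 18.5) and 9.95 (7.93 to 12.3), against 15.9 and 9.58 in all genes of that span. The interior of long potassium channel genes was thus about as dense in peaks as that of other long genes.

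KCNMA1 led the family in number, with 31 RUNX2 and 21 MTA1 peaks inside its 768 kb and none at its ends. That is 40.7 and 27.6 per Mb. Its best RUNX2 peak, chr10:77350564-77351011 (50.7, rank 98.6), overlapped MTA1 at chr10:77350729-77350996 (26.4, rank 93.4) at the inner start printed above, 287 kb from the outer start. The outer start, with 46 CpG and a CpG ratio of 1.01, had no peak of either list within 1 kb. The lncRNA gene KCNMA1-AS3 also ends within 3 kb of the inner peak, so the 2 genes cannot be told apart at this peak.

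Further strong RUNX2 peaks of KCNMA1 were at chr10:77513802-77514187 (49.7, rank 98.5), chr10:77416365-77416756 (46.4, rank 98.1) and chr10:77392756-77393212 (31.4, rank 94.5). Each overlapped an MTA1 peak. The last of these had MTA1 at chr10:77392855-77393224 (25.9, rank 93.1).

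KCNQ5 and KCNQ1 code for voltage-gated channels of slow activation, the first mainly in brain and muscle and the second in heart, inner ear and epithelia. KCNQ5 had 16 RUNX2 and 15 MTA1 peaks inside 577 kb, the best pair being RUNX2 at chr6:73074271-73074518 (27.0, rank 92.5) and MTA1 at chr6:73074256-73074481 (26.8, rank 93.7). KCNQ1 had 18 RUNX2 but 7 MTA1 peaks inside 404 kb. RUNX2 at chr11:2533484-2534237 (63.7, rank 99.5) overlapped MTA1 of rank 85.3, while RUNX2 at chr11:2772815-2773088 (41.7, rank 97.4) overlapped none. The RUNX2 peak chr11:2699989-2700442 (30.2, rank 94.1), stood at an end of KCNQ1OT1, the imprinted antisense lncRNA inside KCNQ1, with MTA1 of rank 83.2. For comparison, the peaks inside all protein-coding genes, counted once for each gene, numbered 25980 for RUNX2 and 16676 for MTA1, so more RUNX2 than MTA1 peaks inside a gene was the general case.

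KCNIP3 and KCNIP4 also belong to the KChIP genes, whose calcium-binding proteins associate with voltage-gated channels. KCNIP3 was dense for its length, with 8 RUNX2 and 9 MTA1 peaks in 88.7 kb, or 96.7 and 109 per Mb of interior. Its RUNX2 peaks reached rank 97.1 at chr2:95315971-95316273, and next to it MTA1 reached rank 94.4 at chr2:95316738-95317320. KCNIP4, the longest member at 1220 kb, had 10 RUNX2 and 7 MTA1 peaks, or 8.24 and 5.77 per Mb. Its best was RUNX2 at chr4:21451122-21451374 (36.1, rank 96.1). KCNIP1, of 383 kb, had 23.9 and 5.3 per Mb, and KCNIP2, of 17.8 kb, had no peak inside. From KCNIP3 over KCNIP1 to KCNIP4 the RUNX2 density thus fell as length rose, but KCNIP2, the shortest, did not follow this. Nor did the MTA1 density fall from KCNIP1 to KCNIP4. Over all genes the RUNX2 density fell from 31.3 per Mb at 10 to 50 kb to 15.9 over 200 kb, and was 24.7 under 10 kb.

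Single strong RUNX2 peaks lay inside other members. KCNT2, a sodium-activated channel, had rank 99.3 (59.8) at chr1:196466742-196466933. KCNH5, a relative of KCNH1, had rank 98.0 (45.3) at chr14:62957648-62958027. The MTA1 peaks that overlapped these ranked 76.5 and 61.9, so RUNX2 ranked higher in its list at both.

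KCNAB1, an accessory subunit, went the other way, with MTA1 of rank 94.6 at chr3:156535296-156535543 over RUNX2 of rank 90.5 at chr3:156535225-156535564. KCNH1 had 7 RUNX2 and 4 MTA1 peaks inside 456 kb, up to ranks 95.4 and 50.1. In all, 20 RUNX2 peaks inside 12 members and 5 MTA1 peaks inside 4 members were at rank 90 or above. These are 9.39% of the RUNX2 and 3.6% of the MTA1 peaks inside members, against 9.43% and 6.55% inside all protein-coding genes. Strong RUNX2 peaks were thus about as common inside members as inside other genes.

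**Figure D4:**
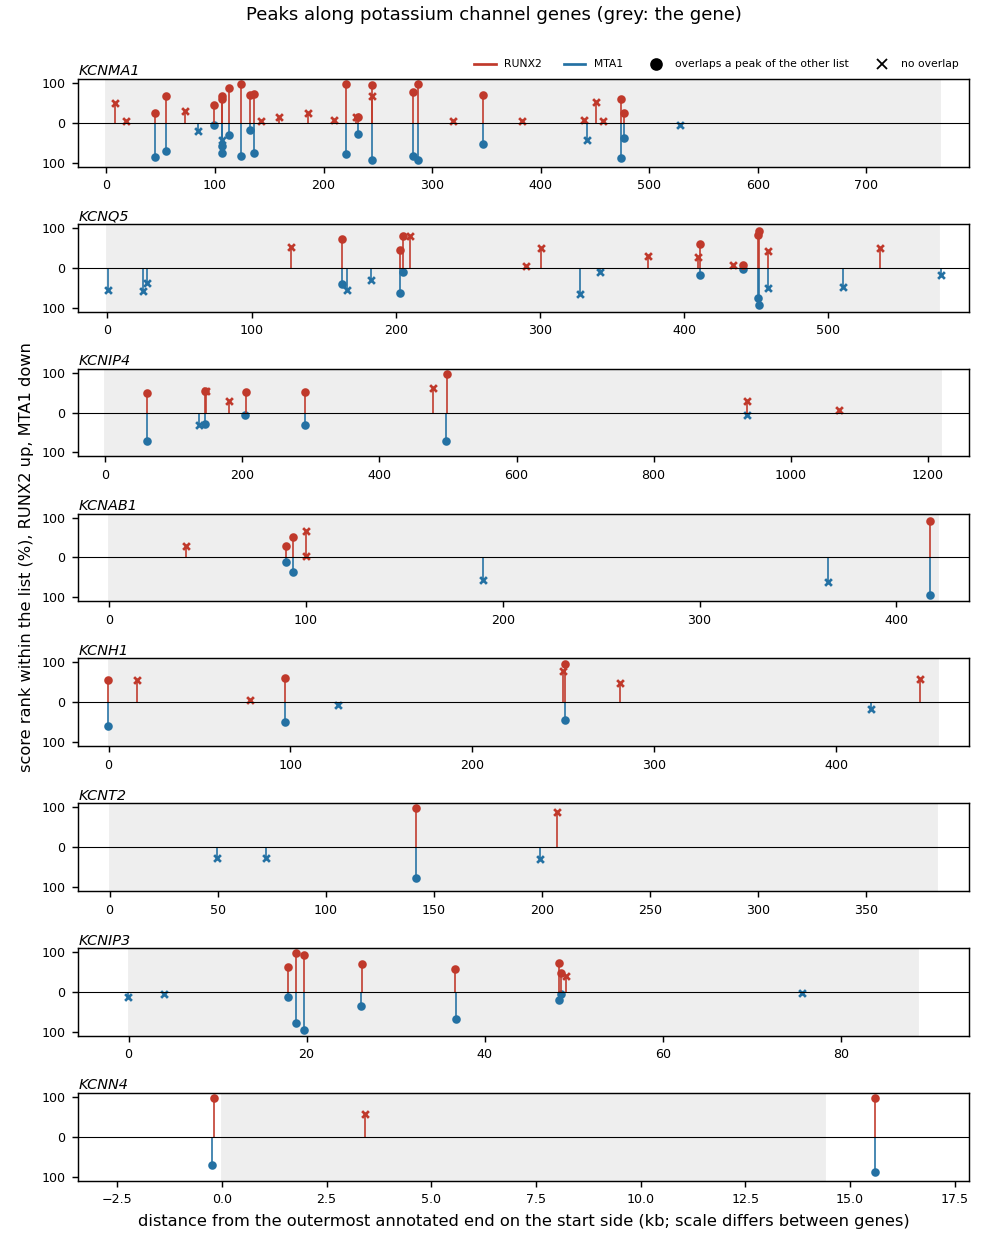
RUNX2 (red, up) and MTA1 (blue, down) peaks along 8 potassium channel genes, at their distance in kb from the outer end on the start side, with the score rank within the list as height. Grey is the gene, dots overlap a peak of the other list and crosses do not. The KCNMA1 pair of ranks 98.6 and 93.4 stands 287 kb inside, and KCNN4 has pairs on both sides of the gene.

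Some members named in breast cancer had few peaks or none. KCNK5, a two-pore domain channel that responds to pH and cell volume, had 1 RUNX2 peak inside, of rank 4.94. KCNK9, a two-pore domain channel gene known for amplification in breast tumours, had 1 MTA1 peak at an end (6.58, rank 40.6) and 1 inside (rank 10.5). KCNJ3 had none over its 160 kb. Also without any peak were KCNC2 (170 kb) and KCNB2 (401 kb), the longest members without one and voltage-gated channels of neurons.

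**Figure D5:**
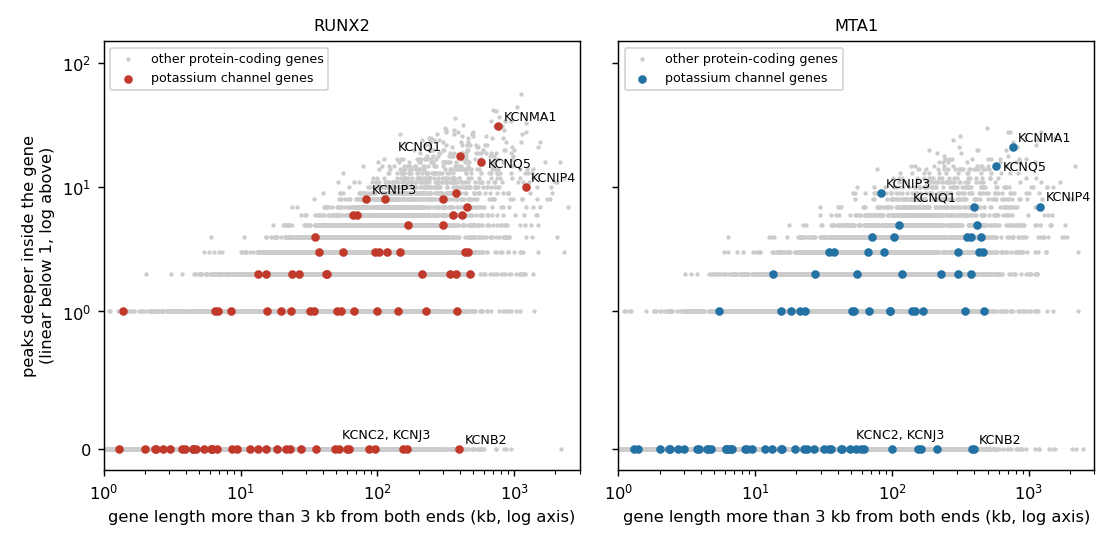
Number of RUNX2 (left) and MTA1 (right) peaks more than 3 kb from both ends against the length of that interior in kb, on log axes (linear below 1 on the vertical axis). Coloured points are potassium channel genes and grey points other protein-coding genes. KCNMA1 (31 and 21 peaks) is near the upper edge, and KCNB2, KCNC2 and KCNJ3 are at 0.

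Inside peaks near another annotated feature were counted for the members only. Whether the counts are low or high beside those of all genes was therefore not tested. An inner start of the member itself was within 1 kb of 5 RUNX2 and 5 MTA1 peaks, of 159 and 107 whose member is in the promoter table. An end of another protein-coding gene was within 3 kb of 1 and 0 of the inside peaks, and an end of a lncRNA gene within 3 kb of 18 and 9.

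With ends and inside pooled, peaks of potassium channel genes ranked lower than those of protein-coding genes as a whole and were less often shared. The median rank of 254 RUNX2 peaks was 44.5, against 51.3, and that of 174 MTA1 peaks 40.0, against 52.8. Of these, 213 and 139 were inside peaks, while over all genes 25404 of 39603 and 16281 of 29231 were. At the ends the medians were 42.0 for RUNX2 and 44.1 for MTA1, against 60.9 and 62.9. Inside they were 45.4 and 38.4, against 46.9 and 44.5, so inside RUNX2 peaks ranked about as those of all genes. At rank 90 or above were 10.2% of the RUNX2 peaks, against 10.5%, and 5.75% of the MTA1 peaks, against 11.7%. An MTA1 peak overlapped 95 of the RUNX2 peaks (37.4%, 31.4 to 43.7), against 49.9%, and a RUNX2 peak overlapped 94 of the MTA1 peaks (54.0%, 46.3 to 61.6), against 67.3%.

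The gap in sharing was wider at the ends. There 46.3% (30.7 to 62.6) of RUNX2 and 54.3% (36.6 to 71.2) of MTA1 peaks were shared, against 67.3% and 72.8%. Inside, it was 35.7% (29.3 to 42.5) and 54.0% (45.3 to 62.4), against 40.0% and 62.7%. Peaks at the narrowest width of their list, 99 bp for RUNX2 and 116 bp for MTA1, were 39.8% and 37.4% of member peaks, against 28.9% and 23.7%. With these left out, the median ranks were 61.3 and 57.1 for the members, against 66.6 and 64.4 over all genes. The members' peaks thus still ranked lower with ends and inside pooled.

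Other families were set beside the potassium channels as a description. End peaks of RUNX2 and MTA1 were in 42.3% and 34.6% of 26 calcium channel genes (CACN), 28.6% and 21.4% of 14 sodium channel genes (SCN) and 43.2% and 36.4% of 44 collagen genes, a family of long genes that are not channels. All had intervals that include the shares of the potassium channel genes. Of 13 partners of potassium channels not named KCN, such as the sulfonylurea receptors ABCC8 and ABCC9 and the accessory proteins DPP6 and DPP10, 2 had a RUNX2 and 3 an MTA1 end peak. Inside, calcium channel genes had 19.3 RUNX2 and 9.84 MTA1 peaks per Mb, sodium channel genes 8.74 and 5.10, and collagen genes 25.1 and 11.4. The end shares of these families were also below those of all genes, although the RUNX2 interval of the calcium channel genes (23.4 to 63.1) includes 59.9%.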

How the data were processed

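RUNX2 and MTA1 were mapped in MDA-MB-231 by CUT&Tag, with 1 library each. For both antibodies the supplier in the labels is not the one in the study's methods, and the labels describe end repair and adaptor ligation, so the product and the library preparation are uncertain. The submitters' processing notes name CASAVA 1.4, Bowtie 0.12.8, MACS, MACS2 and hg19, with no role or threshold. Each deposited list gives the position and name of every peak and a score made by the authors, whose scale was not stated.

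The autosomes, X and Y held 61700 RUNX2 and 42683 MTA1 peaks, and only these were used. Positions are 1-based. Genes, their ends and promoter sequences came from RefSeq tables of GRCh38.p14, in which 72 of 96 potassium channel genes had a promoter entry. Because the notes name hg19, the build was checked on the peaks: on 22 of 22 chromosomes tested, more peaks lay over promoters as listed than after a move of 100 kb. A peak was at an end when it overlapped the 3 kb on either side of a gene end, and inside when it overlapped the gene only farther in. Lists were called overlapping from 1 bp.

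Shares carry exact 95% Clopper-Pearson intervals and densities exact Poisson intervals. Both treat the genes, promoters or peaks counted as independent, which those of 1 family or 1 gene need not be. No p-value was computed, since there was 1 library per antibody and genes are not replicates. Named genes were the 6 with the best end peaks of each list, the 5 with the best inside peaks of each list, the 5 with the most peaks, the 3 longest, 7 studied in breast cancer, and those with end peaks of 1 list, of which some genes are not reported here. The genes, lists and rules were chosen with earlier results of these data known. Alternatives were another window, score, width or overlap limit, peak centres, peaks near no other gene and pore-forming genes only. The assignment step was tested on simulated data. Scripts ran in Python 3.11.15, with intervals from scipy 1.17.1, tables in pandas 2.3.3 on numpy 2.4.6 and figures drawn with matplotlib 3.10.9.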

Additional observations from a re-analysis of the deposited data

How the results depend on the processing

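Each of the 9 results was recomputed under its alternatives, which gave 47 values, of which 25 moved by less than the 95% interval of the main value or 1.5 times the main count and 22 by more. With a window of 1 kb, 16 potassium channel genes had a RUNX2 end peak, 13 an MTA1 end peak and 9 both, or 16.7%, 13.5% and 9.38% against 49.9%, 50.9% and 43.9% of all protein-coding genes. When peaks under the median score were left out, these were 14, 13 and 11 (14.6%, 13.5% and 11.5%, against 44.2%, 44.1% and 36.8%), and 33 and 21 genes had RUNX2 and MTA1 peaks inside (34.4% and 21.9%, against 25.7% and 19.9%). When only the best 10000 peaks per list were kept, they were 6, 6 and 6 at the ends and 16 and 9 inside, and the end shares of 6.25%, 6.25% and 6.25% stood against 17.9%, 28.3% and 14.8% of all genes. The inside shares were then 16.7% against 12.1% for RUNX2, and 9.38% against 10.7% for MTA1, where the order of members and all genes turned. With peaks near no other protein-coding gene end, 22 had a RUNX2 end peak, 19 an MTA1 end peak and 10 both. These are 22.9%, 19.8% and 10.4%, against 40.7%, 38.5% and 32.6% of all genes. Under each of these alternatives and with peaks wider than the narrowest width the end shares of the potassium channel genes stayed below those of all genes.

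Asking for overlap over 50% of each peak left 29.5% of RUNX2 and 43.1% of MTA1 peaks shared, against 38.3% and 51.9% over all genes. Without the peaks under the median score 69.1% of MTA1 peaks were shared, against 76.4%. Among peaks wider than the narrowest width 47.1% and 66.1% were shared, and the median ranks were 61.3 and 57.1, against 59.2% and 74.4% and ranks of 66.6 and 64.4 over all genes. The cause of these moves was not tested beyond the smaller number of peaks used.

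No paired analysis was possible because there was 1 library per antibody. The lists give no reads, so the depth is unknown and weak binding cannot be told from none, and peaks were assigned by distance alone.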

Other observations

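The annotation also holds 31 lncRNA genes whose symbols start with KCN, most of them antisense or divergent to a potassium channel gene. A RUNX2 peak lay within 3 kb of an end in 11 of them, an MTA1 peak in 10 and both in 8. These are 35.5% (95% interval 19.2 to 54.6), 32.3% (16.7 to 51.4) and 25.8% (11.9 to 44.6), against 34.1%, 28.2% and 23.7% of all 18303 lncRNA genes, shares that lie within those intervals. Some of their peaks ranked higher than any end peak of the channel gene they are named for. KCNK15-AS1 had RUNX2 at chr20:44714551-44715083 (35.3, rank 95.9), while the best end peak of KCNK15 had rank 42.0. KCNIP2-AS1 had MTA1 at chr10:101818360-101818801 (33.4, rank 96.5), while the best MTA1 end peak of KCNIP2 had rank 51.5. KCNK4-CATSPERZ, a readthrough of KCNK4 and its neighbour, had RUNX2 at chr11:64304399-64305485 (29.3, rank 93.6) and MTA1 at chr11:64305077-64305502 (28.8, rank 94.7), while KCNK4 had 1 MTA1 end peak of rank 44.1. The start of ESRRA, 3837 bp from the centre of that KCNK4 peak, lies beside both readthrough peaks. Their assignment to a KCN gene therefore rests on distance alone. Which other starts lie near the KCNK15-AS1 and KCNIP2-AS1 peaks was not examined. These genes were chosen for mention after their values were seen.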
